A study of Homo sapiens with 9 samples.

Results

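The Wnt genes described here are 56 of the 60612 genes in the table: 19 Wnt ligands and 10 Frizzled receptors, taken by their gene names, and 27 further regulators named one by one. The regulators are the co-receptors LRP5 and LRP6, the R-spondin receptors LGR4, LGR5 and LGR6, the ligases RNF43 and ZNRF3, the ligand-processing proteins PORCN and WLS, 5 secreted antagonists, 5 Dishevelled and Naked genes, 5 genes of the destruction complex with beta-catenin, and 3 TCF factors. RNA sequencing was done on VCaP cells, an established human prostate cancer line, after 4 days of transfection with KMT2C siRNA 1, KMT2C siRNA 2 or a control siRNA, with 3 libraries per group. KMT2C encodes a histone H3 lysine 4 methyltransferase. Nothing in the labels says that the 3 libraries of a group came from separate cultures, so every p-value measures the spread between these samples only, and that spread may be technical. A transient siRNA lowers the RNA without changing the gene, and the sequences of both siRNAs were not analysed here.

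Wnt ligands are secreted lipid-modified proteins that bind a Frizzled receptor together with LRP5 or LRP6 at the cell surface. Dishevelled then restrains the destruction complex of AXIN, APC and GSK3B, which otherwise marks beta-catenin for degradation, and stabilised beta-catenin acts in the nucleus with TCF factors. Other ligands, WNT5A among them, mostly act through Frizzled receptors without beta-catenin, and in prostate epithelium the pathway is known for its part in development and in tumours.

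Promoters are shown for 5 Wnt genes whose RNA moved the same way with both siRNAs, 3 Frizzled genes that fell and 2 ligand genes that rose, because they let the start regions of the genes behind the main results be compared. Each window runs from 250 bases before to 50 bases after the RefSeq start (GRCh38.p14), 5′ to 3′ on the gene's strand, with every CG dinucleotide in capitals. The windows are chr11:86955346-86955645 (minus strand) for FZD4, chr2:207769857-207770156 (minus) for FZD5, chr10:35642247-35642546 (minus) for FZD8, chr7:117323009-117323308 (minus) for WNT2 and chr10:100462759-100463058 (plus) for WNT8B.
FZD4: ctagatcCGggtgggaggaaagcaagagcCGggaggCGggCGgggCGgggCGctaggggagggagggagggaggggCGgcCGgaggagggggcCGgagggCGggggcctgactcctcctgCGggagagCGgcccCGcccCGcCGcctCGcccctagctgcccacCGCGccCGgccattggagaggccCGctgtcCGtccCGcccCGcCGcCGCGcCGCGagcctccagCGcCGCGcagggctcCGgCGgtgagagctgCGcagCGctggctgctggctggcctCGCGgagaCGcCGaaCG
FZD5: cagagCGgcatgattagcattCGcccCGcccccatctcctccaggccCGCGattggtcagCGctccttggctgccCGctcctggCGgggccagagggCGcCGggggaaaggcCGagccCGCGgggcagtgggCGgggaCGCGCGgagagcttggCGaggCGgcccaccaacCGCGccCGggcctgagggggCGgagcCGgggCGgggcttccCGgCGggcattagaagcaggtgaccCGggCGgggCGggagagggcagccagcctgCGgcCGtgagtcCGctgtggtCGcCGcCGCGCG
FZD8: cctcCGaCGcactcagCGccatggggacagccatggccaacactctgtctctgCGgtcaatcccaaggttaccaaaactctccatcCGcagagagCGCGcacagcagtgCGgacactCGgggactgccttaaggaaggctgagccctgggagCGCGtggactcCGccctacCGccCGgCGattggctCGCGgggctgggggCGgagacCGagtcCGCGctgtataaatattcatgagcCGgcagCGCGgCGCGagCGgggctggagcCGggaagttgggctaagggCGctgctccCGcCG
WNT2: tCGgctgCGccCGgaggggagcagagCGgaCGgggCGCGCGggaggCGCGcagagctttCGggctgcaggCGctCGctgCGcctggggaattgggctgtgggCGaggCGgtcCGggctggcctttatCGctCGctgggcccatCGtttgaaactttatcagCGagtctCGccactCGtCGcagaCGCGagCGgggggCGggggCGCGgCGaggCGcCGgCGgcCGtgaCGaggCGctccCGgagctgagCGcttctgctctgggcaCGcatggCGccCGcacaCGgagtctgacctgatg
WNT8B: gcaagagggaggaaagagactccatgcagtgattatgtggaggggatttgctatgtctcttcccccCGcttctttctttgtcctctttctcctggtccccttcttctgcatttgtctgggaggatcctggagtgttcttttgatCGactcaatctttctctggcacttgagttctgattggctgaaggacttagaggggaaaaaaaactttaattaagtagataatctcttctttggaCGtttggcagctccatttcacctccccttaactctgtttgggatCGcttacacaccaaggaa
The windows of FZD4, FZD5 and FZD8 held 40, 38 and 31 CG dinucleotides. The 2 ligand promoters differed: WNT2 had 43 CG dinucleotides and a GC content of 72.7%, and WNT8B had 4 and 45.7%. Over 35116 promoters in the RefSeq table the median was 14 CG dinucleotides and 58.7% GC, and over the 52 promoters matched to 40 of the 56 Wnt genes it was 26 and 67.0%. The letters CTTTGAA or CTTTGAT, a core TCF motif, were searched on both strands and stood in 6.86% of all these promoters and in 1 of the 52, that of DKK1. CCGGAAGT, an ETS motif, stood in 4.14% of all promoters and in 2 of the 52. The 5 genes shown, the capitals and the motifs were chosen after expression values were seen, and a match or its absence is a description of these letters only.

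KMT2C (ENSG00000055609, GRCh38 chromosome 7, 152134922 to 152436003, minus strand) was at 1.54, 1.80 and 2.28 FPKM (fragments counted per kilobase of transcript and scaled to library depth) with siRNA 1 and at 1.72, 1.64 and 1.73 FPKM with siRNA 2, against 13.7, 12.1 and 12.9 FPKM in control cells. It fell by a log2 fold change of -2.81 ± 0.13 (SE) with siRNA 1 and -2.98 ± 0.13 with siRNA 2 (edgeR, adjusted p = 4.6e-06 and 8.8e-07). Library totals were 58462215 to 70726213 estimated counts, about 4 of which stand for 1 fragment. The luminal prostate markers KRT8, KRT18, EPCAM, HOXB13, KLK3 and ERG were present in every library. EPCAM, an epithelial adhesion protein, averaged 104 ± 11.2 FPKM with siRNA 1 and 91.1 ± 3.03 FPKM with siRNA 2, against 99.2 ± 2.60 FPKM in control cells (SD, n = 3 each). KRT8, a luminal keratin, averaged 15.9 ± 2.49 and 13.9 ± 2.13 FPKM with siRNA 1 and siRNA 2, against 32.3 ± 1.62 FPKM in control cells, and KLK3, the gene of prostate-specific antigen, averaged 9.10 ± 1.02 and 3.39 ± 0.579 FPKM, against 68.9 ± 17.4 FPKM in control cells. Of the markers of other cell types, 3 passed the filter. KRT14, a basal keratin, averaged 7.12 FPKM with siRNA 1 and 0.810 FPKM with siRNA 2, against 2.48 FPKM in control cells. LUM, a fibroblast proteoglycan, averaged 0.698 and 9.74 FPKM with siRNA 1 and siRNA 2, against 1.24 FPKM in control cells. CD14, a monocyte receptor, averaged 1.49 and 1.50 FPKM with siRNA 1 and siRNA 2, against 0.516 FPKM in control cells. Retinal markers, checked because the series' design text calls the RNA retinal, summed to at most 0.00404 FPKM in any library, and 3 of 4 had no count in any. Mitochondrial genes held 8.25 to 9.61% of the counts with siRNA 1 and 11.95 to 12.18% with siRNA 2, against 10.21 to 11.15% in control cells, so the 3 groups did not overlap, with siRNA 1 below and siRNA 2 above control. The part of these markers and of the mitochondrial share in the Wnt results was not tested.

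Of the 56 Wnt genes, 29 reached 1 FPKM in at least 3 libraries and were tested. With siRNA 1, 6 were higher and 11 lower than in control cells at an adjusted p under 0.05 (quasi-likelihood test in edgeR, Benjamini-Hochberg adjustment over all 12830 genes tested, used for every adjusted p below unless another tool is named), which is 58.6% of the 29, where 41.7% of all tested genes were called, 21.2% higher and 20.5% lower. With siRNA 2, 7 were higher and 12 lower, 65.5% of the 29, where 49.3% of all tested genes were called, 24.4% higher and 24.9% lower. The median log2 fold change of the 29 was -0.18 with siRNA 1 and -0.21 with siRNA 2, against 0.01 and 0.02 over all tested genes. The average of both siRNAs against control called 7 higher and 13 lower, where 47.5% of all tested genes were called, 23.0% higher and 24.5% lower. Both comparisons use the same 3 control libraries, so their values stand side by side here and are not 2 independent tests. WNT8B and WNT10B passed the filter through siRNA-treated libraries alone, so both had to differ. FZD2 passed through siRNA 2 and control libraries, and was below 1 FPKM in all 3 siRNA 1 libraries. The counts describe the genes that passed. The number of higher genes rested on control replicate 1: without it 3 were higher with siRNA 1, 4 with siRNA 2 and 4 in the average, and the average also gave 4 without control replicate 2. In a whole culture, fewer cells of a kind and less RNA per cell cannot be told apart.

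**Figure D1:**
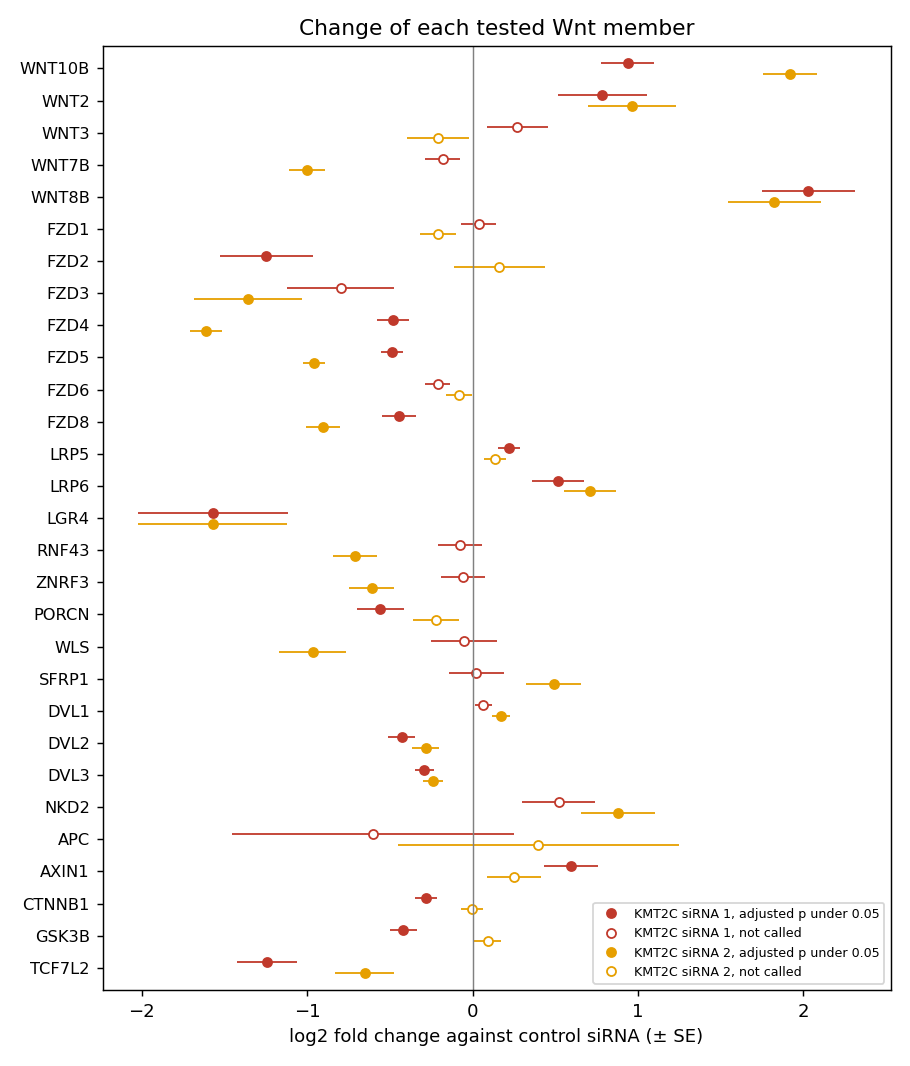
Log2 fold change (± SE) of each of the 29 tested Wnt genes with KMT2C siRNA 1 (red) and KMT2C siRNA 2 (orange) against control siRNA, with filled points for an adjusted p under 0.05. WNT8B and WNT10B lie farthest to the right and LGR4 and FZD4 farthest to the left, and FZD4, FZD5, FZD8 and TCF7L2 are called lower with both siRNAs.

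Wnt ligands moved in both directions. Of the 19 ligand genes 5 were tested, and WNT2, WNT8B and WNT10B rose with both siRNAs, while WNT7B fell with siRNA 2. WNT8B and WNT10B passed the filter through siRNA-treated libraries alone, so these 2 had to differ. With genes kept from 0.1 FPKM, 12 ligand genes were tested. Of these, 2 were higher and 3 lower with siRNA 1, and 3 higher and 4 lower with siRNA 2. In that fit 26.8% and 34.5% of all genes were called with siRNA 1 and siRNA 2. WNT2 (ENSG00000105989, chromosome 7, 117275451 to 117323099, minus strand), the ligand with the highest mean, was at 4.15, 4.47 and 6.62 FPKM with siRNA 1 and at 4.50, 8.35 and 4.77 FPKM with siRNA 2, against 2.47, 3.17 and 3.03 FPKM in control cells. Every siRNA library lay above every control library, and replicate 2 of siRNA 2 was the highest. The log2 fold change came to 0.79 ± 0.27 for siRNA 1 (adjusted p = 0.043), and for siRNA 2 it was 0.96 ± 0.27 (adjusted p = 0.016, edgeR). The siRNA 1 call was lost without siRNA 1 replicate 2 or 3 or without any control replicate (adjusted p = 0.055 to 0.14), and at a lower filter of 0.1 FPKM (adjusted p = 0.061). The siRNA 2 call was lost without control replicate 1 (adjusted p = 0.059), and without siRNA 2 replicate 2 the log2 fold change was 0.64 (adjusted p = 0.041).

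WNT8B (ENSG00000075290, chromosome 10, 100463009 to 100483744, plus strand), a ligand best known from the developing forebrain, was at 1.59, 2.18 and 2.99 FPKM with siRNA 1 and at 1.97, 1.52 and 2.50 FPKM with siRNA 2, against 0.449, 0.584 and 0.587 FPKM in control cells. The lowest siRNA library was above the highest control library by a wide gap. Its rise was 4.08-fold with siRNA 1 (log2 2.03 ± 0.28, adjusted p = 0.00064) and 3.54-fold with siRNA 2 (log2 1.82 ± 0.28, adjusted p = 0.00074). WNT10B (ENSG00000169884, chromosome 12, 48965340 to 48971735, minus strand), a ligand that signals through beta-catenin and restrains fat cell formation, was at 1.81, 1.67 and 1.60 FPKM with siRNA 1 and at 3.03, 3.03 and 4.22 FPKM with siRNA 2, against 0.878, 0.854 and 0.868 FPKM in control cells. The 3 groups did not overlap, with siRNA 2 highest. Against control, siRNA 1 gave a log2 difference of 0.94 ± 0.16 (adjusted p = 0.0018), and siRNA 2 gave 1.92 ± 0.16 (adjusted p = 2.4e-05). Its neighbour WNT1, which starts 6586 bases beyond it, had counts in 1 library only, at 0.0195 FPKM.

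WNT7B (ENSG00000188064, chromosome 22, 45920366 to 45977162, minus strand), an epithelial ligand, was at 1.96, 1.92 and 2.01 FPKM with siRNA 1 and at 1.14, 1.12 and 1.14 FPKM with siRNA 2, against 2.35, 1.90 and 2.31 FPKM in control cells. The siRNA 2 libraries were the lowest, and the siRNA 1 libraries overlapped with the controls. It fell 2.00-fold with siRNA 2 (SE of the log2 change 0.11, adjusted p = 8.7e-05), and its log2 fold change with siRNA 1 was -0.18 ± 0.10 (adjusted p = 0.20). WNT3, the remaining tested ligand, averaged 1.60 ± 0.374 FPKM with siRNA 1 and 1.18 ± 0.134 FPKM with siRNA 2, against 1.31 ± 0.131 FPKM in control cells (SD, n = 3 each), and was not called. Summed over all 19 genes, ligand RNA was 12.3 to 16.2 FPKM with siRNA 1 and 13.9 to 17.1 FPKM with siRNA 2, against 9.74 to 10.1 FPKM in control cells. The control range lay below both siRNA ranges.

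**Figure D2:**
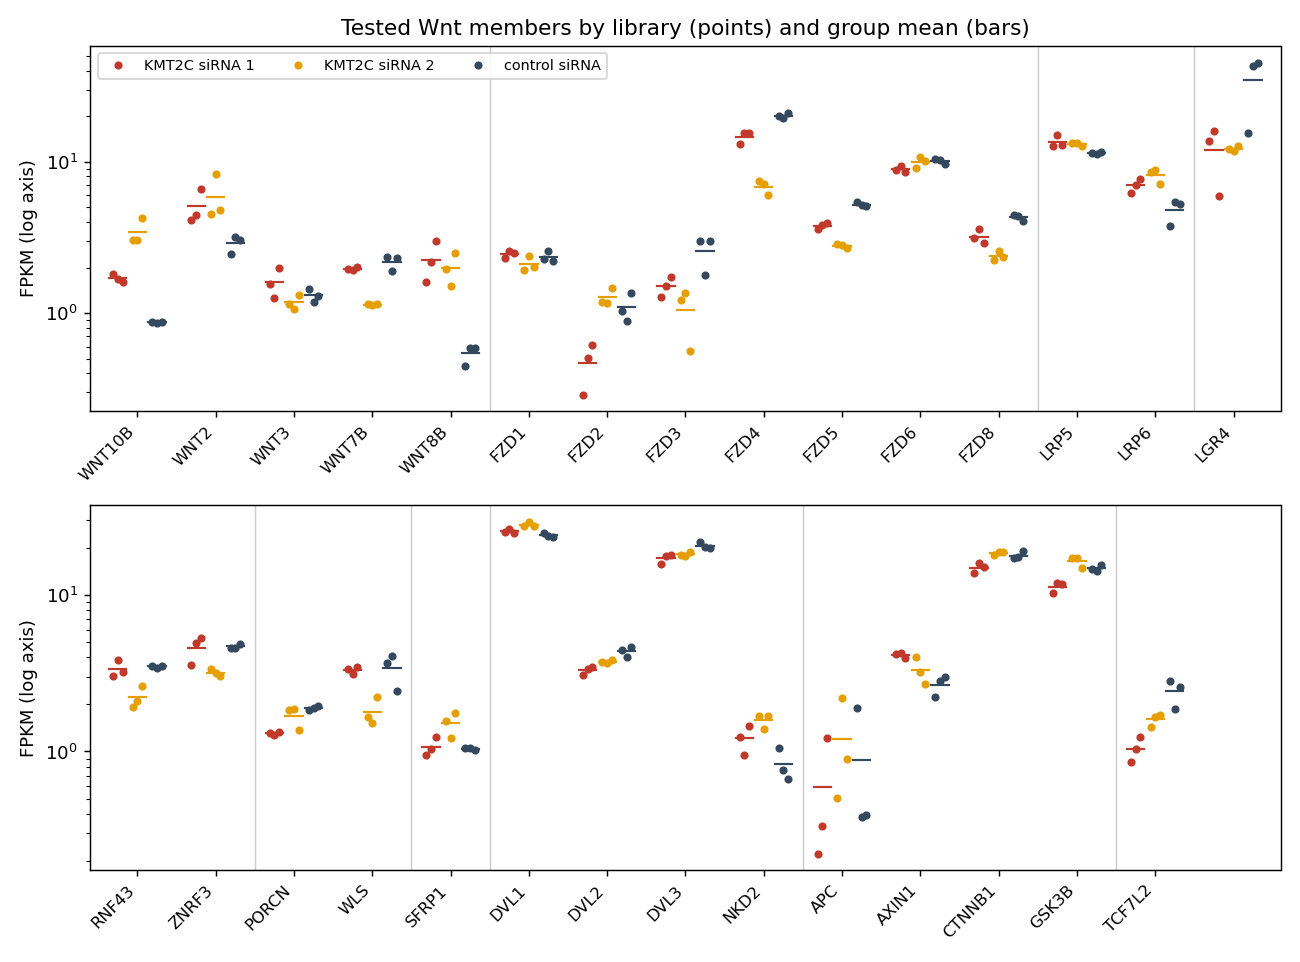
FPKM on a log axis of the 29 tested Wnt genes in each library, with KMT2C siRNA 1 in red, KMT2C siRNA 2 in orange and control siRNA in dark blue, a point per library and a bar for each group mean, and grey lines between roles. WNT10B, FZD4, FZD5, FZD8, DVL1, DVL2 and TCF7L2 separate into 3 groups without overlap, DVL1 by a narrow gap between siRNA 1 and control. The share of all tested genes that separate this way was not counted, and 39.5% of them were called between the siRNAs. The libraries of APC spread widely within every group, and those of LGR4 with siRNA 1 and with control siRNA.

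Frizzled receptors, which bind the ligands, were measured in all 10 genes and 7 were tested. None was called higher with either siRNA in edgeR, also none at an unadjusted p under 0.05 or with DESeq2 or limma, and 4 fell with each: FZD2, FZD4, FZD5 and FZD8 with siRNA 1, and FZD3, FZD4, FZD5 and FZD8 with siRNA 2. Of all tested genes, 20.5% were lower with siRNA 1 and 24.9% with siRNA 2. The median log2 fold change of the 7 was -0.48 with siRNA 1 and -0.90 with siRNA 2. FZD4 (ENSG00000174804, chromosome 11, 86945679 to 86955395, minus strand), a receptor for Wnt ligands and for Norrin, was at 13.1, 15.5 and 15.5 FPKM with siRNA 1 and at 7.45, 7.08 and 6.03 FPKM with siRNA 2, against 20.0, 19.3 and 21.1 FPKM in control cells. The groups did not overlap, and siRNA 2 was lowest. FZD4 fell 1.40-fold with siRNA 1 (log2 -0.48 ± 0.10, adjusted p = 0.0039) and 3.06-fold with siRNA 2 (log2 -1.61 ± 0.10, adjusted p = 4.0e-06). Of its exon bases, 18.95% overlap PRSS23 on the opposite strand in GENCODE release 29, and whether counting used strand is not given in the sources used here.

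FZD5 (ENSG00000163251, chromosome 2, 207762598 to 207769906, minus strand), a receptor with a role in intestinal and eye development, was at 3.60, 3.80 and 3.95 FPKM with siRNA 1 and at 2.87, 2.80 and 2.69 FPKM with siRNA 2, against 5.39, 5.19 and 5.06 FPKM in control cells. FZD8 (ENSG00000177283, chromosome 10, 35638249 to 35642278, minus strand), the closest relative of FZD5, was at 3.12, 3.60 and 2.89 FPKM with siRNA 1 and at 2.23, 2.56 and 2.34 FPKM with siRNA 2, against 4.41, 4.37 and 4.07 FPKM in control cells. Both genes had the same order as FZD4, with siRNA 2 lowest, control cells highest and no overlap between groups. FZD5 changed by a log2 of -0.49 ± 0.07 with siRNA 1 (adjusted p = 0.00060), and under siRNA 2 by -0.96 ± 0.07 (adjusted p = 8.6e-06). FZD8 changed by -0.44 ± 0.10 (adjusted p = 0.0088) and -0.90 ± 0.10 (adjusted p = 0.00014) in the same comparisons.

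FZD2 (ENSG00000180340, chromosome 17, 44557484 to 44561262, plus strand), a receptor linked to WNT5A signalling, was at 0.289, 0.505 and 0.613 FPKM with siRNA 1 and at 1.18, 1.17 and 1.47 FPKM with siRNA 2, against 1.03, 0.884 and 1.37 FPKM in control cells. It was low with siRNA 1 alone, and the siRNA 2 libraries overlapped with the controls. FZD2 fell 2.37-fold with siRNA 1 (log2 -1.25 ± 0.28, adjusted p = 0.0079), and its log2 fold change with siRNA 2 was 0.16 ± 0.28 (adjusted p = 0.66). FZD3 (ENSG00000104290, chromosome 8, 28494205 to 28574267, plus strand), a receptor of the planar polarity branch, was at 1.28, 1.51 and 1.74 FPKM with siRNA 1 and at 1.22, 1.36 and 0.560 FPKM with siRNA 2, against 2.98, 1.79 and 2.98 FPKM in control cells. All siRNA libraries were below the controls, by little in the case of control replicate 2. On the log2 scale, siRNA 1 cells differed from control by -0.80 ± 0.32 (adjusted p = 0.079; DESeq2 gave 0.024), and siRNA 2 cells by -1.36 ± 0.33 (adjusted p = 0.0082).

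FZD6 averaged 8.91 ± 0.468 FPKM with siRNA 1 and 9.96 ± 0.848 FPKM with siRNA 2, against 10.1 ± 0.403 FPKM in control cells (SD, n = 3 each), and was not called, although with RLE scaling its siRNA 1 value passed (log2 -0.23, adjusted p = 0.046). FZD1 averaged 2.45 ± 0.125 and 2.11 ± 0.247 FPKM with siRNA 1 and siRNA 2, against 2.35 ± 0.193 FPKM in control cells, and was not called either. The order of the receptors thus differed between groups: FZD4 had the highest mean FPKM with siRNA 1 and in control cells, and FZD6 with siRNA 2. Summed over the 10 genes, Frizzled RNA was 33.2 to 37.9 FPKM with siRNA 1 and 26.7 to 28.98 FPKM with siRNA 2, against 46.1 to 48.4 FPKM in control cells. No group's range reached that of another.

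**Figure D3:**
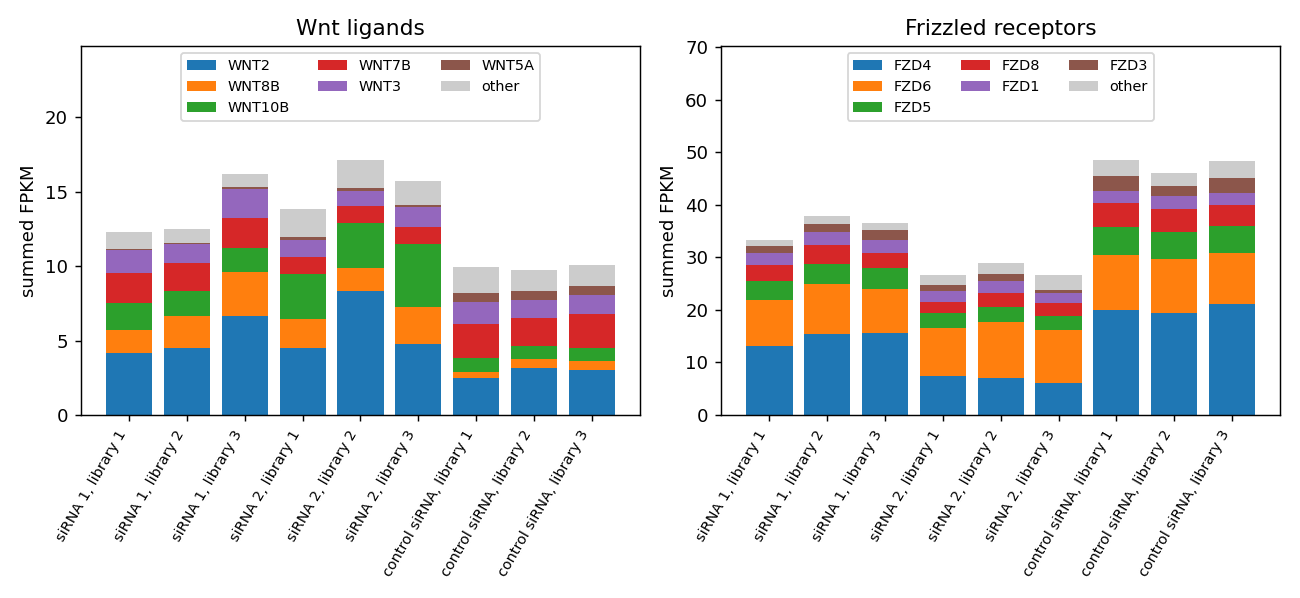
Summed FPKM of the 19 Wnt ligands (left) and of the 10 Frizzled receptors (right) in each library, stacked by gene, with KMT2C siRNA 1 and siRNA 2 libraries left of the control libraries. Ligand sums are 12.3 to 16.2 FPKM with siRNA 1 and 13.9 to 17.1 with siRNA 2, above the 9.74 to 10.1 of control cells, and Frizzled sums and their FZD4 segments are lower with both siRNAs.

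The co-receptors did not fall with the Frizzled genes. LRP6 (ENSG00000070018, chromosome 12, 12116025 to 12267044, minus strand) was at 6.24, 7.07 and 7.73 FPKM with siRNA 1 and at 8.57, 8.89 and 7.09 FPKM with siRNA 2, against 3.75, 5.39 and 5.29 FPKM in control cells. Every siRNA library was above every control library, of which replicate 1 was the lowest. LRP6 rose by a log2 of 0.52 ± 0.16 with siRNA 1 (adjusted p = 0.029), and under siRNA 2 by 0.71 ± 0.16 (adjusted p = 0.0055). The siRNA 1 call was lost without siRNA 1 replicate 2 or 3 or control replicate 1 (adjusted p = 0.062, 0.082 and 0.056). LRP5 (ENSG00000162337, chromosome 11, 68312591 to 68449275, plus strand), the more abundant co-receptor, was at 12.8, 14.96 and 13.0 FPKM with siRNA 1 and at 13.2, 13.3 and 12.8 FPKM with siRNA 2, against 11.5, 11.2 and 11.6 FPKM in control cells. The groups of both siRNAs lay just above the controls. Its log2 fold change came to 0.22 ± 0.07 for siRNA 1 (adjusted p = 0.026), and for siRNA 2 it was 0.14 ± 0.07 (adjusted p = 0.12). The siRNA 1 call was lost without siRNA 1 replicate 2 (adjusted p = 0.067) and without control replicate 1 or 2 (adjusted p = 0.083 and 0.082), and the siRNA 2 value passed with upper-quartile scaling (log2 0.24, adjusted p = 0.014).

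R-spondin receptors and the ligases they restrain set how much Frizzled protein stays at the surface. LGR4 (ENSG00000205213, chromosome 11, 27365961 to 27472790, minus strand), the only one of the 3 LGR genes tested, was at 13.7, 16.0 and 5.92 FPKM with siRNA 1 and at 12.1, 11.7 and 12.6 FPKM with siRNA 2, against 15.4, 42.9 and 45.3 FPKM in control cells. Control replicate 1 lay with the siRNA libraries, below siRNA 1 replicate 2, so the siRNA 1 and control groups overlapped. The log2 fold change was -1.57 ± 0.45 with either siRNA (adjusted p = 0.022 with siRNA 1 and 0.019 with siRNA 2). Leaving out control replicate 2 or 3 ended the call with siRNA 1 (adjusted p = 0.066 and 0.072) and with siRNA 2 (adjusted p = 0.056 and 0.062), as did leaving out any siRNA 2 replicate for siRNA 2 (adjusted p = 0.050 to 0.057). LGR5 and LGR6 were at 0.0600 FPKM or less in every library.

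RNF43 (ENSG00000108375), a ligase that removes Frizzled receptors, averaged 3.37 ± 0.433 FPKM with siRNA 1 and 2.21 ± 0.372 FPKM with siRNA 2, against 3.49 ± 0.0713 FPKM in control cells (SD, n = 3 each). ZNRF3 (ENSG00000183579), its homologue, averaged 4.58 ± 0.914 FPKM with siRNA 1 and 3.19 ± 0.183 FPKM with siRNA 2, against 4.68 ± 0.159 FPKM in control cells. Both ligases fell with siRNA 2, RNF43 by a log2 of -0.71 ± 0.13 (adjusted p = 0.0023) and ZNRF3 by -0.61 ± 0.13 (adjusted p = 0.0052). With siRNA 1 the log2 fold changes were -0.08 ± 0.13 and -0.06 ± 0.13, and neither passed. RNF43 shares 57.6% of its exon bases with AC004687.2, annotated as protein-coding on the same strand, which held 120 counts over all libraries together. It also shares 1.9% with SUPT4H1 on the same strand, which held 12971 counts. Another 20.3% overlap TSPOAP1-AS1 on the opposite strand, which held 480 counts. How counts in shared bases were assigned is not given in the sources used here.

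Ligand processing was lower for PORCN, which adds the lipid, with siRNA 1 and for WLS, which carries the ligands to the surface, with siRNA 2. WLS (ENSG00000116729, chromosome 1, 68098473 to 68232545, minus strand) was at 3.38, 3.13 and 3.48 FPKM with siRNA 1 and at 1.66, 1.53 and 2.21 FPKM with siRNA 2, against 3.69, 4.04 and 2.45 FPKM in control cells. The siRNA 2 libraries were the lowest, and control replicate 3 was near them. Against control, siRNA 1 gave a log2 difference of -0.05 ± 0.20 (adjusted p = 0.86), and siRNA 2 gave -0.97 ± 0.20 (adjusted p = 0.0041). PORCN (ENSG00000102312) averaged 1.31 ± 0.0236 FPKM with siRNA 1 and 1.69 ± 0.281 FPKM with siRNA 2, against 1.89 ± 0.0547 FPKM in control cells (SD, n = 3 each). On the log2 scale, siRNA 1 cells differed from control by -0.56 ± 0.14 (adjusted p = 0.013), and siRNA 2 cells by -0.22 ± 0.14 (adjusted p = 0.23).

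Of the 5 secreted antagonists only SFRP1, which binds Wnt ligands outside the cell, was tested. SFRP1 (ENSG00000104332, chromosome 8, 41261962 to 41309473, minus strand) was at 0.947, 1.04 and 1.24 FPKM with siRNA 1 and at 1.57, 1.22 and 1.76 FPKM with siRNA 2, against 1.05, 1.06 and 1.02 FPKM in control cells. The siRNA 2 libraries were above the controls and the siRNA 1 libraries lay on both sides of them. Its log2 fold change came to 0.02 ± 0.16 for siRNA 1 (adjusted p = 0.92), and for siRNA 2 it was 0.49 ± 0.16 (adjusted p = 0.035). The siRNA 2 call was lost without siRNA 2 replicate 1 or 3 or any control replicate (adjusted p = 0.074 to 0.11), and at the lower filter of 0.1 FPKM (adjusted p = 0.074). DKK1, DKK3 and WIF1 were at or below 0.231 FPKM in every library.

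The Dishevelled genes, which relay the signal from Frizzled, moved little and not all one way. DVL1 (ENSG00000107404, chromosome 1, 1335276 to 1349418, minus strand), the member with the highest mean FPKM over all libraries, was at 25.3, 26.5 and 24.7 FPKM with siRNA 1 and at 27.6, 29.3 and 27.3 FPKM with siRNA 2, against 24.7, 23.7 and 23.5 FPKM in control cells. DVL2 (ENSG00000004975, chromosome 17, 7225342 to 7234517, minus strand) was at 3.10, 3.35 and 3.47 FPKM with siRNA 1 and at 3.70, 3.67 and 3.83 FPKM with siRNA 2, against 4.44, 4.03 and 4.66 FPKM in control cells. DVL3 (ENSG00000161202, chromosome 3, 184155377 to 184173614, plus strand) was at 15.8, 17.6 and 17.9 FPKM with siRNA 1 and at 17.9, 17.7 and 18.7 FPKM with siRNA 2, against 21.6, 20.1 and 20.0 FPKM in control cells. DVL2 and DVL3 were lower in every siRNA library than in any control library, while DVL1 was highest with siRNA 2. The log2 fold changes with siRNA 1 and siRNA 2 were 0.06 ± 0.05 and 0.17 ± 0.05 for DVL1 (adjusted p = 0.36 and 0.024), -0.43 ± 0.08 and -0.28 ± 0.08 for DVL2 (adjusted p = 0.0033 and 0.019), and -0.29 ± 0.06 and -0.24 ± 0.06 for DVL3 (adjusted p = 0.0047 and 0.0099). With upper-quartile scaling the siRNA 2 calls of DVL2 and DVL3 were lost (adjusted p = 0.081 and 0.078). The DVL1 call was lost without siRNA 2 replicate 2 or any control replicate (adjusted p = 0.059 to 0.073), and the siRNA 2 call of DVL2 without siRNA 2 replicate 1 or 2 or control replicate 3 (adjusted p = 0.057 to 0.071). NKD2 (ENSG00000145506), an inhibitor of Dishevelled, averaged 1.21 ± 0.252 FPKM with siRNA 1 and 1.59 ± 0.171 FPKM with siRNA 2, against 0.827 ± 0.204 FPKM in control cells, with log2 fold changes of 0.52 ± 0.22 (adjusted p = 0.091) and 0.88 ± 0.22 (adjusted p = 0.010).

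In the destruction complex 4 genes were tested. With siRNA 1, AXIN1 rose, and GSK3B and CTNNB1 fell. CTNNB1 (ENSG00000168036, chromosome 3, 41194741 to 41240443, plus strand), which encodes beta-catenin, was at 13.9, 15.9 and 14.96 FPKM with siRNA 1 and at 18.0, 18.7 and 18.7 FPKM with siRNA 2, against 17.1, 17.4 and 18.96 FPKM in control cells. GSK3B (ENSG00000082701, chromosome 3, 119821321 to 120094447, minus strand), the kinase that marks beta-catenin, was at 10.3, 11.9 and 11.7 FPKM with siRNA 1 and at 17.2, 17.3 and 14.7 FPKM with siRNA 2, against 14.7, 14.3 and 15.5 FPKM in control cells. For both genes the siRNA 1 libraries were below all others, and siRNA 2 overlapped with the controls. CTNNB1 changed by a log2 of -0.28 ± 0.07 with siRNA 1 (adjusted p = 0.0093), and GSK3B by -0.42 ± 0.08 (adjusted p = 0.0036). With siRNA 2 the log2 fold change was 0.09 ± 0.08 for GSK3B (adjusted p = 0.39) and within 0.01 of 0 for CTNNB1 (SE 0.07, adjusted p = 0.99). AXIN1 (ENSG00000103126), the scaffold of the complex, averaged 4.12 ± 0.171 FPKM with siRNA 1 and 3.31 ± 0.658 FPKM with siRNA 2, against 2.67 ± 0.406 FPKM in control cells. Against control, siRNA 1 gave a log2 difference of 0.60 ± 0.16 (adjusted p = 0.018; 0.057 without control replicate 1), and siRNA 2 gave 0.25 ± 0.16 (adjusted p = 0.24).

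APC, the tumour suppressor of the complex, is described because its replicates disagreed, a choice made after its values were seen. It was at 0.223, 0.336 and 1.21 FPKM with siRNA 1 and at 0.505, 2.21 and 0.899 FPKM with siRNA 2, against 1.88, 0.382 and 0.396 FPKM in control cells. Within each group the highest library was 4.37 to 5.43 times the lowest, the widest within-group spread of the 29 tested genes. No difference could be read at that spread (log2 -0.60 ± 0.85 with siRNA 1 and 0.40 ± 0.85 with siRNA 2).

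TCF7L2 (ENSG00000148737, chromosome 10, 112950247 to 113167678, plus strand), a nuclear partner of beta-catenin and the one tested TCF member, was at 0.852, 1.04 and 1.23 FPKM with siRNA 1 and at 1.43, 1.67 and 1.72 FPKM with siRNA 2, against 2.84, 1.87 and 2.58 FPKM in control cells. The 3 groups did not overlap, and siRNA 1 was lowest. TCF7L2 fell 2.37-fold with siRNA 1 (log2 -1.24 ± 0.18, adjusted p = 0.00081) and 1.57-fold with siRNA 2 (log2 -0.65 ± 0.18, adjusted p = 0.015). The siRNA 2 call was lost without siRNA 2 replicate 1 (adjusted p = 0.058) or control replicate 1 (adjusted p = 0.053). TCF7 and TCF7L1 were at or below 0.171 FPKM in every library.

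The other 27 Wnt genes were below the filter. Of these, 15 reached 0.1 FPKM in at least 3 libraries, and 4 ligand genes (WNT6, WNT7A, WNT8A and WNT9B) had no count in any library, which allows up to 0.170 to 0.205 CPM (a count relative to its library total) at the limit of 12 counts (3 fragments) per library, for counting error only. WNT9B and WNT3 lie 46 bases apart, and the first had no count while WNT3 was tested. With the lower filter 21288 genes were tested, and of the 44 Wnt genes among them 7 were higher and 16 lower with siRNA 1, where 26.8% of all genes were called (12.8% higher, 14.0% lower). With siRNA 2, 7 were higher and 18 lower, where 34.5% were called (15.6% higher, 18.9% lower). In the average, 7 were higher and 20 lower, where 32.6% were called (14.4% higher, 18.2% lower). Testing this set was decided after the data were seen, and several of its genes passed through the group where they are high.

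**Figure D4:**
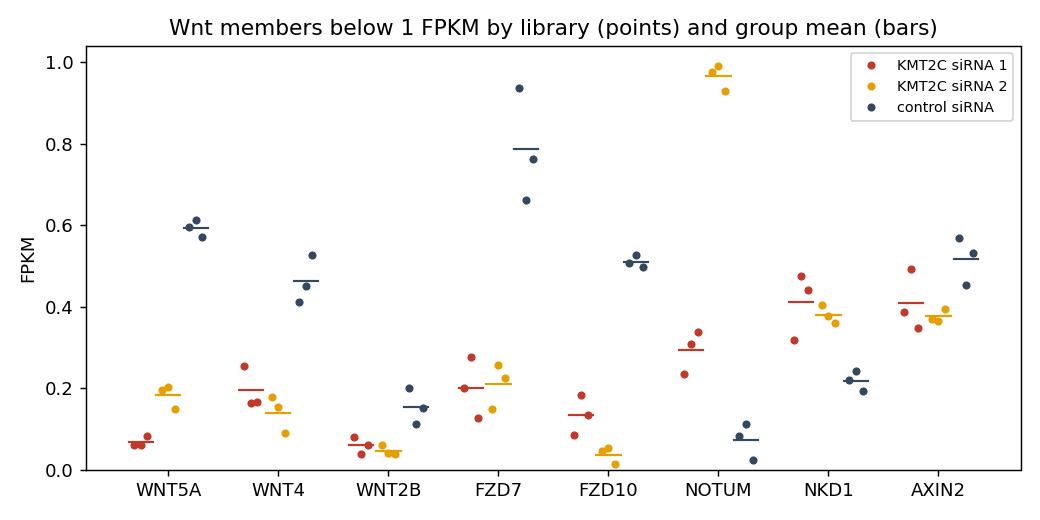
FPKM in each library of 8 Wnt genes below the filter that were called with at least 1 siRNA at the lower filter, with points for libraries, bars for group means, KMT2C siRNA 1 in red, KMT2C siRNA 2 in orange and control siRNA in dark blue. WNT5A, WNT4, FZD7 and FZD10 are highest in control cells, and NOTUM is at 0.930 to 0.991 FPKM with siRNA 2.

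WNT5A (ENSG00000114251, chromosome 3, 55465715 to 55489945, minus strand), the leading ligand of the branch without beta-catenin, was at 0.0593, 0.0611 and 0.0820 FPKM with siRNA 1 and at 0.195, 0.204 and 0.148 FPKM with siRNA 2, against 0.596, 0.614 and 0.572 FPKM in control cells. The groups were far apart, with siRNA 1 lowest. WNT5A fell 8.92-fold with siRNA 1 (log2 -3.16 ± 0.21, adjusted p = 2.6e-05) and 3.49-fold with siRNA 2 (log2 -1.80 ± 0.20, adjusted p = 0.00016). WNT4 (ENSG00000162552), a ligand of urogenital development, was at 0.255, 0.163 and 0.165 FPKM with siRNA 1 and at 0.177, 0.153 and 0.0897 FPKM with siRNA 2, against 0.412, 0.450 and 0.527 FPKM in control cells. All siRNA libraries were below the controls. The log2 fold change of WNT4 was -1.28 ± 0.31 with siRNA 1 (adjusted p = 0.015). The siRNA 2 value was -1.82 ± 0.32 (adjusted p = 0.0022), and the siRNA 1 call was lost without siRNA 1 replicate 2 or 3 or control replicate 3 (adjusted p = 0.052 to 0.053). WNT2B (ENSG00000134245) averaged 0.0596 ± 0.0213 FPKM with siRNA 1 and 0.0463 ± 0.0114 FPKM with siRNA 2, against 0.155 ± 0.0433 FPKM in control cells, but 21.2% of its exon bases overlap ST7L on the opposite strand. WNT2B passed the lower filter through the control libraries alone, so it had to be lower with the siRNAs. It was called lower with both (log2 -1.41 ± 0.36 and -1.83 ± 0.36), and the siRNA 1 call was lost without siRNA 1 replicate 2 or 3 (adjusted p = 0.050 and 0.052). Without any 1 control library it no longer passed the filter, so its calls were not checked that way.

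Both remaining low Frizzled genes that were called also fell. FZD9, tested at the same filter, was not called (log2 0.11 ± 0.30 with siRNA 1 and 0.58 ± 0.30 with siRNA 2, adjusted p = 0.83 and 0.17, edgeR). FZD7 (ENSG00000155760, chromosome 2, 202034587 to 202038445, plus strand), a receptor of stem-like epithelial cells, was at 0.199, 0.276 and 0.127 FPKM with siRNA 1 and at 0.149, 0.258 and 0.224 FPKM with siRNA 2, against 0.936, 0.662 and 0.764 FPKM in control cells. FZD10 (ENSG00000111432, chromosome 12, 130162459 to 130165740, plus strand) was at 0.0840, 0.182 and 0.135 FPKM with siRNA 1 and at 0.0450, 0.0520 and 0.0146 FPKM with siRNA 2, against 0.508, 0.526 and 0.497 FPKM in control cells. Control libraries were the highest for both. FZD7 fell 4.01-fold with siRNA 1 (adjusted p = 0.0024), and 3.99-fold under siRNA 2 (adjusted p = 0.0017), each with an SE of 0.33 on the log2 scale. FZD10 changed by a log2 of -1.96 ± 0.43 with siRNA 1 (adjusted p = 0.0093), and under siRNA 2 by -3.81 ± 0.47 (adjusted p = 0.00032), where the siRNA 2 libraries held 12, 14 and 4 counts, at or near the limit of 12.

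NOTUM (ENSG00000185269, chromosome 17, 81952507 to 81961187, minus strand), a secreted enzyme that removes the lipid from Wnt ligands, was at 0.234, 0.309 and 0.339 FPKM with siRNA 1 and at 0.977, 0.991 and 0.930 FPKM with siRNA 2, against 0.0821, 0.112 and 0.0231 FPKM in control cells. The groups did not overlap, and siRNA 2 was just below the filter. NOTUM rose 3.85-fold with siRNA 1 (log2 1.94 ± 0.46, adjusted p = 0.013) and 12.03-fold with siRNA 2 (log2 3.59 ± 0.47, adjusted p = 0.00043), over 17, 27 and 6 counts in the control libraries. The control library with 6 counts was below the limit of 12, so the size of the rise is uncertain. NOTUM passed the lower filter through the siRNA-treated libraries where it was high, since the control libraries by themselves did not pass it. NKD1 (ENSG00000140807), an inhibitor of Dishevelled, averaged 0.412 ± 0.0826 FPKM with siRNA 1 and 0.381 ± 0.0214 FPKM with siRNA 2, against 0.218 ± 0.0249 FPKM in control cells, and rose with both (log2 0.87 ± 0.17 and 0.70 ± 0.17, adjusted p = 0.0051 and 0.012). AXIN2 (ENSG00000168646), a feedback inhibitor and common reporter of beta-catenin activity, averaged 0.410 ± 0.0752 FPKM with siRNA 1 and 0.377 ± 0.0160 FPKM with siRNA 2, against 0.518 ± 0.0597 FPKM in control cells. On the log2 scale, siRNA 1 cells differed from control by -0.38 ± 0.19 (adjusted p = 0.17), and siRNA 2 cells by -0.56 ± 0.19 (adjusted p = 0.044). The siRNA 2 call of AXIN2 was lost without siRNA 1 replicate 1, any siRNA 2 replicate or any control replicate (adjusted p = 0.050 to 0.12). AXIN2 shares 25.2% of its exon bases with AC004805.1 on the same strand, which had no count in any library.

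The 2 siRNAs were also compared directly, which tests the difference of their effects. Of the 29 genes, 7 were higher with siRNA 1 than with siRNA 2 and 5 were lower, 41.4% of the 29, where 39.5% of all tested genes were called (20.6% higher, 18.9% lower). The 7 were FZD4, FZD5, FZD8, WNT7B, WLS, RNF43 and ZNRF3, and each was lower against control with siRNA 2 than with siRNA 1. The 5 were FZD2, TCF7L2, GSK3B, CTNNB1 and WNT10B. FZD4 had the largest difference among the 7, at a log2 of 1.13 ± 0.10 (adjusted p = 4.3e-05), and FZD2 the largest among the 5, at -1.41 ± 0.28 (adjusted p = 0.0046). FZD3, LRP5, PORCN, SFRP1, DVL1, NKD2 and AXIN1 were called against control with 1 siRNA alone, but their difference between the siRNAs did not pass (adjusted p = 0.051 to 0.36). Under other settings 4 of these differences passed. That of SFRP1 passed with DESeq2 (adjusted p = 0.030), both other scalings, limma on log2(FPKM + 1), and without siRNA 1 replicate 3 or siRNA 2 replicate 2 (adjusted p = 0.037 and 0.019), and that of DVL1 with upper-quartile scaling (log2 -0.16, adjusted p = 0.0496). Those of AXIN1 and PORCN passed without siRNA 2 replicate 1 and siRNA 2 replicate 3, in that order (log2 0.50 and -0.47, adjusted p = 0.039 and 0.023). At the lower filter 8 were higher and 8 lower, where 26.4% of all genes were called (14.7% higher, 11.7% lower). WNT11, a ligand of the branch without beta-catenin, was at 0.0538, 0.195 and 0.0842 FPKM with siRNA 1, against 0.440, 0.452 and 0.402 FPKM with siRNA 2, while the 3 control libraries were at 0.228, 0.133 and 0.261 FPKM. Its difference was a log2 of -1.84 ± 0.47 (adjusted p = 0.020; 0.064 without siRNA 1 replicate 3 and 0.052 without siRNA 2 replicate 2), with opposite signs against control that did not pass.

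Among 60 other Wnt pathway genes, which are no members of the 56, 32 were tested. With siRNA 1, 7 were higher and 15 lower, and with siRNA 2, 9 were higher and 10 lower, with median log2 fold changes of -0.23 and -0.04. Of all tested genes, 21.2% were higher and 20.5% lower with siRNA 1, and 24.4% and 24.9% with siRNA 2. The average of both siRNAs gave the smallest adjusted p to FBXW11, TLE3, TLE1 and TNIK. FBXW11, a ubiquitin ligase subunit that recognises phosphorylated beta-catenin, averaged 24.5 ± 1.87 FPKM with siRNA 1 and 11.4 ± 0.180 FPKM with siRNA 2, against 29.9 ± 1.23 FPKM in control cells. A pair of corepressors of TCF factors went in opposite directions: TLE3 averaged 7.90 ± 0.398 and 9.06 ± 0.615 FPKM with siRNA 1 and siRNA 2, against 14.1 ± 0.266 FPKM in control cells, and TLE1 averaged 1.70 ± 0.0920 and 7.61 ± 0.688 FPKM, against 1.34 ± 0.136 FPKM in control cells. TNIK, a kinase that binds TCF7L2, averaged 1.51 ± 0.140 and 1.50 ± 0.0752 FPKM with siRNA 1 and siRNA 2, against 0.754 ± 0.0681 FPKM in control cells.

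Of 21 genes known as beta-catenin targets in other cells, 8 were tested. With siRNA 1, 1 was higher and 5 were lower, and with siRNA 2, 5 were lower and 3 were not called, with median log2 fold changes of -0.83 and -0.88, where 41.7% and 49.3% of all tested genes were called with siRNA 1 and siRNA 2. JAG1, a Notch ligand, averaged 1.46 ± 0.196 FPKM with siRNA 1 and 3.26 ± 0.0256 FPKM with siRNA 2, against 8.36 ± 0.412 FPKM in control cells (SD, n = 3 each). CCND1, the gene of cyclin D1, averaged 146 ± 5.10 and 132 ± 3.48 FPKM with siRNA 1 and siRNA 2, against 223 ± 11.9 FPKM in control cells. SLC12A2 and EPHB3 fell with both siRNAs as well (log2 -1.06 ± 0.08 and -0.95 ± 0.08 for SLC12A2, -1.02 ± 0.11 and -1.45 ± 0.11 for EPHB3). The remaining calls, named after their values were seen, were those of APCDD1 and LEF1. APCDD1, a membrane inhibitor of Wnt signalling, averaged 2.87 ± 0.215 FPKM with siRNA 1 and 0.468 ± 0.0463 FPKM with siRNA 2, against 2.06 ± 0.140 FPKM in control cells, and was called higher with siRNA 1 and lower with siRNA 2. LEF1, a relative of the TCF factors, averaged 7.70 ± 0.489 FPKM with siRNA 1 and 17.9 ± 0.517 FPKM with siRNA 2, against 15.5 ± 0.347 FPKM in control cells, and was called lower with siRNA 1. Among the 56 Wnt genes themselves, 8 are known targets, and 6 of these were tested at the lower filter of 0.1 FPKM. With siRNA 1, 2 were higher and 0 lower, and with siRNA 2, 2 were higher and 3 lower. In that fit 26.8% and 34.5% of all genes were called. NOTUM, which passed that filter through the siRNA-treated libraries, and NKD1 rose with both siRNAs. RNF43, ZNRF3 and AXIN2 fell with siRNA 2, the AXIN2 call being lost without some libraries, and TCF7 was not called with either. These lists were chosen with earlier results of these data known, so their counts are a description.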

How the data were processed

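RNA sequencing libraries of VCaP cells were grouped by their labels into KMT2C siRNA 1, KMT2C siRNA 2 and control siRNA, with 3 libraries each. The deposited table gives expected counts per gene, which were not normalized and hold whole numbers, so that rounding changed no value. It also gives FPKM calculated by the authors, per the file headers, with genes without counts listed at 0.0001 and shown here as 0. Low counts pile up at multiples of 4, so about 4 counts stand for 1 fragment. The builds hg38 and mm8 and the aligner Bowtie 0.12.2 are listed per the submitters' processing notes, which give no role. Not given in the sources used here were the counting tool, its strand setting and the annotation. All 56 Wnt genes overlap their GENCODE release 29 models on GRCh38, 9 with the same start and end, so coordinates are as in the table, on GRCh38. Library totals were 58462215 to 70726213 counts.

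The 12830 genes that reached 1 FPKM in 3 or more libraries were tested with edgeR 4.0.16 (TMM scaling, quasi-likelihood F test, R 4.3.3) on the counts of all 9 libraries, 2-sided, with 1 mean per group and Benjamini-Hochberg adjustment over all genes tested at 0.05. SE is the log2 fold change divided by the square root of F. The members and lists were chosen with earlier results of these data known. Values in every library are given for tested members called at a log2 of at least 1 with either siRNA, called the same way with both, or differing between siRNAs with opposite signs, and for the highest member of each role. Up to 4 genes with the smallest adjusted p are named per other list. Applying the rule at the filter of 0.1 FPKM was decided after the data were seen. Alternatives were RLE and upper-quartile scaling, DESeq2 1.42.0, limma 3.58.1 on log2(FPKM + 1) and log2(FPKM + 0.1), filters at 0.1 FPKM or none, counts divided by 4, only the groups compared, a replicate block, and each library left out. Genes that passed only the filter of 0.1 FPKM were not run with limma, with counts divided by 4 or with only the groups compared. The scripts were tested on simulated data. Promoters are RefSeq windows on GRCh38.p14. Intervals and limits cover counting error only.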

Additional observations from a re-analysis of the deposited data

Results flagged for a closer look

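Direct comparison of the siRNAs picked out 12 of the 29 tested Wnt genes, because their change with siRNA 1 differed from their change with siRNA 2 in edgeR's test of the difference itself (log2 of siRNA 1 over siRNA 2, Benjamini-Hochberg adjusted p under 0.05). Of all tested genes 39.5% differed this way, so the 41.4% among the Wnt genes is near the background. Receptors FZD4, FZD5 and FZD8 were higher with siRNA 1 than with siRNA 2, by log2 1.13, 0.47 and 0.46. The ligand WNT7B and its carrier WLS were higher by 0.82 and 0.91, and the ligases RNF43 and ZNRF3 by 0.63 and 0.55. Differences in the other direction were -1.41 for FZD2, -0.98 for WNT10B, -0.59 for TCF7L2, -0.51 for GSK3B and -0.28 for CTNNB1. The TCF7L2 difference had an adjusted p of 0.029, and was lost without siRNA 1 replicate 1 or 2 or siRNA 2 replicate 2 or 3 (adjusted p = 0.071 to 0.084). KMT2C itself was at a log2 of 0.17 ± 0.12 between the siRNAs (adjusted p = 0.31).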

How the results depend on the processing

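The 95 Wnt calls cover both siRNAs, their average and the direct comparison. Of these, 68 were made at the filter of 1 FPKM and the rest at 0.1 FPKM. All 95 held with DESeq2, 94 with RLE scaling, 89 with the replicate block, 88 with upper-quartile scaling and 82 without a filter. Of the 68, 63 held at the filter of 0.1 FPKM, and 65 and 66 with limma at pseudocounts of 1 and 0.1. All 68 held with counts divided by 4, and 47 of the 48 outside the average held with only the groups compared. Calls made at 0.1 FPKM were not run with limma or with these settings. Of the 95, 27 were lost without some library, while none changed sign without any. Upper-quartile scaling moved the median of all genes with siRNA 2 to a log2 of 0.12, against 0.02 with TMM. Counts of Wnt genes called that moved by over 1.5 times were those of higher genes without control replicate 1 or, in the average, control replicate 2, given with the results, and those at the filter of 0.1 FPKM, which tests more genes and gave 20 lower in the average (13 before) and 8 lower between the siRNAs (5 before). With each library left out in turn, higher calls were 3 to 6 with siRNA 1, 4 to 7 with siRNA 2 and 4 to 7 in the average, and lower calls were 10 to 12, 9 to 12 and 10 to 13 in the same comparisons. Same-numbered libraries did not deviate together (9 correlations from -0.069 to 0.039). The best match had the same number in 4 of 18 comparisons of a library with another group. The labels do not say whether the numbers pair libraries, and this check cannot show that they do not. With the replicate block, 6 higher and 11 lower were called with siRNA 1, 7 and 12 with siRNA 2, and 5 and 12 in the average. No fit of only the groups compared was made for the average, which needs all groups.

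Signs turned only in values that passed no test, and the cause was not tested. With limma at a pseudocount of 0.1, WLS with siRNA 1 was 0.0019. CTNNB1 with siRNA 2 was 0.096 with upper-quartile scaling and 0.053 and 0.055 with limma at pseudocounts of 1 and 0.1, and FZD6 was 0.016 with upper-quartile scaling. In the average, APC was 0.016 and 0.032 with limma at the same pseudocounts, and WNT3 was -0.0011 at the lower filter. LGR4 between the siRNAs was -0.0040 with RLE scaling, -0.047 with upper-quartile scaling, -0.0041 with DESeq2, -0.13 and -0.15 with limma, -0.0080 with only the groups compared and -0.026 with the replicate block. The block also turned TCF7 with siRNA 1 (-0.055) and WNT11 in the average (-0.042). Leaving out libraries gave, with siRNA 1, ranges of -0.24 to 0.093 for WLS, -0.175 to 0.090 for ZNRF3, -0.093 to 0.10 for SFRP1, -0.0085 to 0.10 for FZD1, -0.31 to 0.38 for TCF7, -0.0030 to 0.19 for FZD9 and -0.64 to 0.55 for WNT5B. With siRNA 2 they were -0.051 to 0.046 for CTNNB1 and -1.08 to 0.070 for WIF1. In the average they were -0.47 to 0.094 for APC, -0.067 to 0.11 for WNT3, -0.30 to 0.22 for WNT11, -0.026 to 0.31 for TCF7, -0.030 to 0.19 for WNT9A and -0.19 to 1.00 for WNT5B. Between the siRNAs they were -0.26 to 0.33 for LGR4, -0.045 to 0.40 for WNT8B, -0.41 to 0.15 for WNT2, -0.57 to 0.13 for TCF7 and -0.31 to 0.24 for FZD7. Depth limits the genes below 0.1 FPKM most, where a library holds few fragments.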
